A study of Mus musculus with 2 samples.

Results

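The genes of antibody assembly, secretion and transport were examined on arrays of sorted mouse intestinal cells. The group has 10 listed genes: the antibody chain genes Ighm, Igha and Igkc, the joining chain gene Jchain, the transport receptor gene Pigr, the plasma cell surface genes Sdc1 and Cd38, the transcription genes Pou2af1 and Xbp1, and the folding cofactor gene Mzb1. A listed gene was measured where a feature of the array carried its symbol and no other, which held for 6 of the 10, among 28281 genes named in this way in all. These were Ighm, Jchain, Pigr, Sdc1, Pou2af1 and Xbp1, each through 1 feature. No feature carried Igha, Igkc, Cd38 or Mzb1 alone, so these were not measured.

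The series holds 2 arrays of 1 group, numbered replicate 1 and replicate 2 in the labels and called array 1 and array 2 here. The cells are labelled ILCreg, regulatory innate lymphoid cells, and were sorted from the small intestine of mice aged 8 weeks. The mice were IL-10-GFP knockin animals on the C57BL/6 background, in which green fluorescent protein is placed at the gene of the cytokine interleukin 10. Both arrays share this genotype, and a second population was not analysed here. The markers used for gating are likewise not given in the sources used here. Whether different animals or different sorts gave the replicates is not labelled, so their spread may be technical.

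As background, plasma cells are the antibody-secreting end stage of the B cell lineage, and the gut wall holds many that make immunoglobulin A (IgA). In such a cell the antibody chains enter the endoplasmic reticulum (ER), are folded there and are joined into polymers by the J chain. The polymeric immunoglobulin receptor, made by epithelial cells, then carries polymeric IgA and IgM across the epithelium into the gut lumen. XBP1 is the transcription factor that enlarges the secretory apparatus, and POU2AF1 (OCA-B) is a B lineage coactivator.

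Values are the authors' deposited signals, taken as log2 from their range, 2.10 to 19.86. The log base is not stated, so fold values hold only if it is 2. Receptor genes for odours, pheromones and taste, 1678 in all, served to gauge the signal read without transcript on the same arrays. Their 95th percentile, 6.74 on array 1 and 6.19 on array 2, served as the threshold, and a gene had to exceed it on each array to count as above it. Probes differ in affinity, so signals of different genes do not order their transcripts by abundance. With 1 group of 2 arrays no test between groups exists, and no p-value is given.

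The 6 measured genes all lay above the threshold on both arrays, against 31.7% of all named genes, or 38.9% of those that code for protein and are outside the reference. Jchain, Pigr, Xbp1 and Ighm lay far above it, and Sdc1 and Pou2af1 only just above it. The 31.7% and the 38.9% are also the background for the list counts below. The median signal of the 6 was 12.77, against 5.43 for all named genes. These are levels in a bulk sample, in which fewer cells of a type and less RNA per cell cannot be told apart. Nor do the arrays show which cells gave a transcript.

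**Figure D1:**
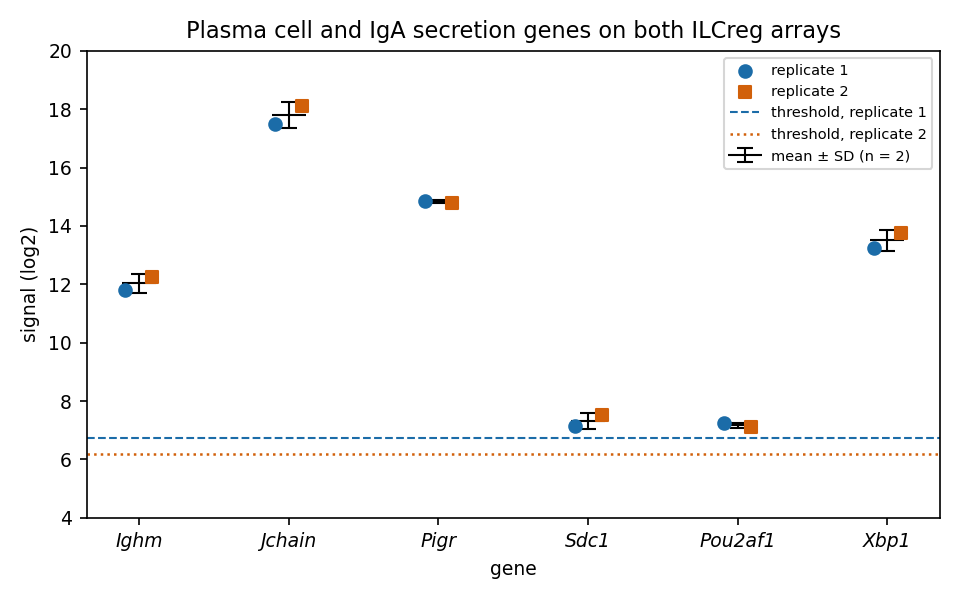
Signal (log2, vertical axis) of each measured plasma cell and IgA secretion gene, with circles for replicate 1, squares for replicate 2, a dash and bars for the mean ± SD (n = 2), and broken lines for the threshold of each array. Jchain, Pigr, Xbp1 and Ighm stand more than 5 log2 units above the lines, whereas Sdc1 and Pou2af1 stand within 1.5 of them.

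Among the antibody chain genes, Ighm encodes the constant region of the IgM heavy chain. Its signal was 11.81 on array 1 and 12.26 on array 2, a mean of 12.03 ± 0.32 (SD, n = 2). It lay 5.06 and 6.07 log2 units above the thresholds of the arrays, with array 2 the higher. Of the 17 constant region and surrogate light chain genes looked at, 8 had a feature of their own and 2 of these, Ighm and Ighg2b, passed on both arrays. Ighg2b, the constant region gene of an IgG heavy chain, had 12.46 and 12.79, a mean of 12.62 ± 0.23. Its sequence is close to that of other IgG genes, so its probes may share signal with them. The IgG1 gene Ighg1 had 6.66 and 6.15, below the threshold on each array, and the IgE gene Ighe had 3.89 and 3.99. The surrogate light chain gene Igll1, a marker of B cell precursors, stood at 4.18 and 3.77. The median of the 8 was 5.01, below the 5.43 of all named genes.

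IgA itself could not be read. Igha, the IgA heavy chain gene, is listed on 1 feature together with 7 other heavy chain symbols, and Igkc, the kappa constant region gene, on 1 feature with 13 other kappa symbols. Neither signal can be given to a gene, and both are described with the data left unused.

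The joining chain gene Jchain, named Igj in the array annotation, had a signal of 17.47 on array 1 and 18.11 on array 2. The mean was 17.79 ± 0.45 (SD, n = 2), which is 11.33 log2 units above the mean of the thresholds. Both values were below the highest readings of the arrays, 19.80 and 19.86. They exceeded 16, the most that a 16-bit scanner reading gives on the log2 scale, by a step that is not known. J chain bridges the units of polymeric IgA and IgM, and so is needed for their transport by the receptor that Pigr encodes.

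Pigr gave 14.87 on array 1 and 14.79 on array 2, a mean of 14.83 ± 0.06 (SD, n = 2). It lay at least 8.12 log2 units above the threshold of either array, and the arrays were nearly equal. Epithelial cells are the known source of this receptor. In the list of intestinal epithelial markers 15 of 16 measured genes passed. The summed linear signal of the list was 115757 on array 1 and 121170 on the other. Linear sums weigh most the genes of highest signal, here Krt8. No marker of the list was at 0, as no value of the arrays was, the lowest being 2.10. The stem cell marker Lgr5 was the 1 not above the threshold, at 5.33 and 4.81. The keratin gene Krt8 (15.42 and 15.76), the goblet cell gene Agr2 (14.03 and 13.62) and the trefoil gene Tff3 (13.79 and 13.74) were the highest of the list. The part of epithelial RNA in the signal of Pigr was not tested. Of the related receptor genes, the IgA and IgM receptor gene Fcamr stood at 4.97 and 4.82 and the IgM receptor gene Fcmr at 5.02 and 4.98, both below the threshold on each array. Cd300lg, another member of the family, stood at 3.98 and 4.19. These genes were listed as relatives, and Fcamr and Fcmr were singled out after their values were seen.

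At the cell surface, Sdc1 encodes syndecan 1 (CD138), a heparan sulfate proteoglycan used to recognise plasma cells and also made by epithelial cells. Its signal was 7.13 on array 1 and 7.51 on array 2, a mean of 7.32 ± 0.27 (SD, n = 2). It exceeded the threshold by 0.39 and 1.33 log2 units, and with a threshold at the 99th percentile (7.91 and 7.21) it no longer passed on both arrays. Among the other plasma cell surface, survival and homing genes 11 of 15 measured passed on both arrays, 2 on a single array and 2 on neither, with a median of 8.04. Tnfrsf17, which encodes the plasma cell survival receptor BCMA, was 1 of the 2 on neither, with 6.38 and 5.54. The other was the B cell survival receptor gene Tnfrsf13c, with 5.56 and 5.92. Their relative Tnfrsf13b (TACI) passed, at 6.86 and 6.98, but lay only just above the threshold on array 1 and below the 99th percentile on each array.

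Of the genes of this list with the highest signals, Il6st, the shared signalling chain of interleukin 6 family receptors, had 12.73 and 13.11. Cxcr4, the chemokine receptor that holds plasma cells in bone marrow, had 11.18 and 12.22, and the antigen gene Ly6c2 had 13.87 and 13.60, a gene with a near-identical copy whose probes may share signal. Il6st and Cxcr4 are widely expressed among leukocytes. Slamf7, a surface receptor of plasma cells and other lymphocytes, had 11.05 and 11.20. Of the receptors that guide IgA plasma cells to mucosa, Ccr10 had 7.72 and 7.40 and passed, whereas Ccr9, which guides them to the small intestine, had 5.96 and 6.58 and passed only on array 2. The integrin chain genes Itga4 (9.50 and 10.34) and Itgb7 (7.48 and 7.88), which together form the gut homing integrin, passed on both. Tnfrsf13b, Slamf7, Ccr10, Ccr9 and Itgb7 were chosen after their values were seen.

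In transcription, Pou2af1 encodes the coactivator that binds the octamer factors on immunoglobulin promoters. Its signal was 7.23 on array 1 and 7.11 on array 2, a mean of 7.17 ± 0.09 (SD, n = 2). It exceeded the threshold by 0.49 and 0.92 log2 units and, like Sdc1, no longer passed with the 99th percentile. Xbp1 had 13.24 and 13.76, a mean of 13.50 ± 0.37, which was at least 6.50 log2 units above the threshold of either array. Its transcript is also made in secretory epithelial cells and other leukocytes, and the array does not separate its spliced from its unspliced form as deposited.

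The other factors listed for the plasma cell programme were above the threshold in 11 of 12 measured genes, with a median of 9.07. Over all named genes 31.7% passed. The 11 include Foxo1 (9.15 and 9.05) and Mef2c (8.35 and 8.69), both named after their values were seen and neither particular to plasma cells. Prdm1 (BLIMP-1), which represses the B cell programme, had 7.86 and 8.18, and Irf4, which is required for plasma cells, had 8.30 and 8.79. Both were named after their values were seen, and both also act in T cells and other leukocytes. Ell2, an elongation factor that favours the secreted form of antibody heavy chains, had 11.19 and 12.12. The immediate early gene Fos (11.99 and 12.42) and the stress factor gene Atf4 (10.89 and 10.81) were also high, and both are expressed in most cell types. The partner of ELL proteins Eaf2 had 7.01 and 7.55. Ikzf3 (Aiolos), a lymphoid zinc finger factor, had 6.57 and 6.78 and passed only on array 2.

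Genes of the secretory apparatus that XBP1 is known to serve were above the threshold in 47 of 49 measured cases, and the other 2 passed on 1 array. The median of the list was 10.33. The chaperone genes Hsp90b1 (16.66 and 17.13) and Hspa5 (15.20 and 15.06), which encode the ER proteins GRP94 and BiP, and the translocon-associated gene Ssr2 (16.03 and 15.97) were the highest. The signal recognition particle gene Srp14 (6.70 and 6.44) and the oxidase gene Ero1b (6.52 and 6.88), which passed on array 2 alone, were the lowest. Ern1, which encodes the ER stress sensor IRE1 that splices Xbp1 messenger RNA, had 10.55 and 10.72 and was named after its values were seen. All secretory cells express most of these genes.

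**Figure D2:**
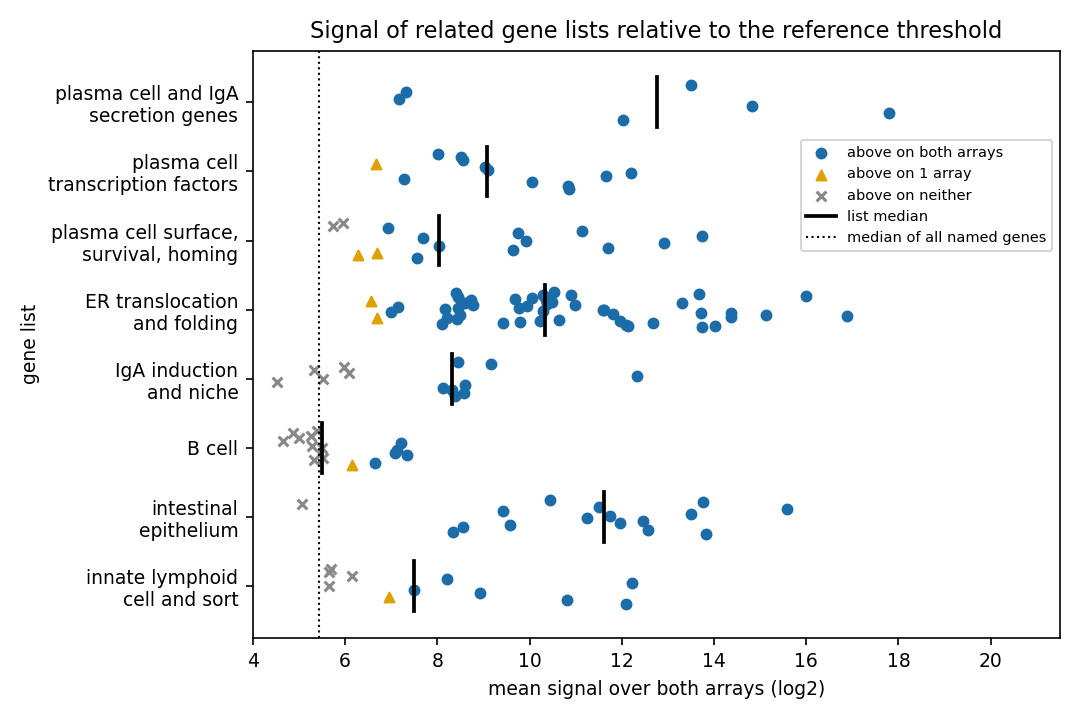
Mean signal over both arrays (log2, horizontal axis) of every measured gene of 8 lists, with circles above the threshold on both arrays, triangles on 1 array and crosses on neither, bars for list medians and a dotted line for the median of all named genes. The B cell list has its median at 5.49, close to the dotted line at 5.43. Every other list shown, the innate lymphoid one included, has its median to the right of that line.

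Sequence elements of these factors were looked for in the RefSeq promoter windows of GRCm38.p6, which run from 250 bases before to 50 bases after a gene's start. Windows were found for 5 of the 6 measured genes, Ighm being the one without. The 7-base core CCACGTC, which holds the ACGT bound by XBP1, was searched on both strands and occurs in 2.73% of the 27025 genes with a window. Among the 5 it was in the window of Pou2af1, shown here because a coactivator gene of the plasma cell programme carries the letters. The octamer ATGCAAAT, in 1.97% of genes, and the 19-base ER stress element (CCAAT, any 9 bases, then CCACG), in 0.137%, did not match in these 5 windows. The stress element was in 9 of the 41 secretory genes with a window (22%) and the core in 7 (17.1%). The last 5 letters of the stress element are the first 5 of the core, so a site can hold both. Below are the window part of Pou2af1 and, for comparison, those of 3 secretory genes with a match, in lower case with the match in capitals, each 5′ to 3′ along the gene's own strand. A match is a description and not a bound site.
Pou2af1, chr9:51213590-51213676, plus strand, core in reverse orientation: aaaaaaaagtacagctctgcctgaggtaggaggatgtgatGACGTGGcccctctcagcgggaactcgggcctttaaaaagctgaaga
Txndc5, chr13:38528005-38528091, minus strand, core in reverse orientation: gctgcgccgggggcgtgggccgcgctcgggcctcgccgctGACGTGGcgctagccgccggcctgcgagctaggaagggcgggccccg
Hspa5, chr2:34771985-34772083, plus strand, stress element: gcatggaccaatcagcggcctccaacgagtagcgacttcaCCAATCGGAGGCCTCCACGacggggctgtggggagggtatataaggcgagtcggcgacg
Creld2, chr15:88819480-88819578, plus strand, stress element in reverse orientation: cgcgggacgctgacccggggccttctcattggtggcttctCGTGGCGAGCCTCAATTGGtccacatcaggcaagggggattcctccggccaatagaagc
The core of Pou2af1 begins 60 bases before its start and that of Txndc5, a thioredoxin-like folding gene, 137 bases before. The stress element of Hspa5 begins 65 bases before its start, and that of Creld2, an ER stress gene, 126 bases before. Txndc5 had signals of 10.17 and 10.87, and Creld2 had 11.75 and 12.54, so all 4 genes were above the threshold on both arrays. Txndc5 was chosen after its values were seen.

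Of 15 measured B cell identity genes 5 passed on both arrays, 1 on a single array and 9 on neither, a share close to the 31.7% of all named genes. Their median, 5.49, was close to the 5.43 of all named genes too. The 5 were Cd72 (6.92 and 7.74), the early B cell factor gene Ebf1 (7.27 and 7.16), the antigen receptor chain genes Cd79b (7.10 and 7.13) and Cd79a (6.76 and 7.41), and the adaptor gene Bank1 (6.86 and 6.44), the last named after its values were seen. All 5 lay near the threshold, Cd79a barely above the 6.74 of array 1, and below the 99th percentile of the reference on that array, 7.91. Ebf1 is also expressed by stromal cells, and the 8 measured stromal markers all passed. The part of stromal RNA in the signal of Ebf1 was not tested. Pax5, which maintains B cell identity and is switched off in plasma cells, had 4.86 on each array. The summed linear signal of the list was 1063 on array 1 and 1154 on the other.

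Markers of the labelled cell type were divided. Of 11 measured 6 passed on both arrays, against 31.7% of all named genes. Among the 6 were the pan-leukocyte gene Ptprc (12.28 and 12.14), Id2 (12.23 and 11.93), Il10 (10.59 and 11.05) and Il7r (8.52 and 9.32). Thy1 (5.56 and 5.72) and Klrg1 (5.90 and 5.41) did not pass. Macrophage markers passed in 9 of 10 cases and T cell markers in 4 of 6. The signals of the plasma cell and IgA secretion genes thus stand on arrays that also read genes of several other lineages, and the part of each cell type in them was not tested.

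The arrays differed from each other by little for Pigr and Pou2af1 and by more for the other measured genes. Differences are replicate 2 minus replicate 1 after subtracting the median over all named genes, -0.05. They were 0.69 for Jchain, 0.57 for Xbp1, 0.50 for Ighm and 0.43 for Sdc1, against -0.03 for Pigr and -0.07 for Pou2af1. Thus 4 of 6 were higher on array 2, as were 55.3% of genes above the threshold, and the median difference of the 6 was 0.47. The difference of Jchain corresponds to 1.61-fold. None of the 6 differed by more than 2-fold, as did 4.16% of genes above the threshold, and each difference rests on 1 array against 1.

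**Figure D3:**
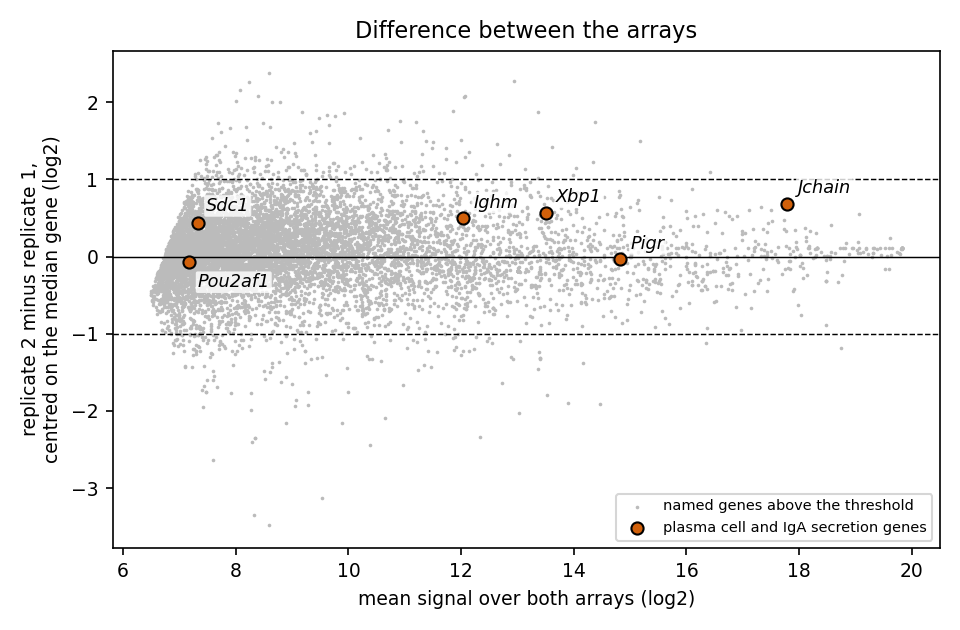
Difference between the arrays (replicate 2 minus replicate 1, log2, centred on the median gene, vertical axis) against mean signal (log2, horizontal axis), with grey points for the 8971 named genes above the threshold and large points for the 6 measured plasma cell and IgA secretion genes. Dashed lines mark 2-fold, and Jchain at 0.69 lies at the upper edge of the genes of its signal.

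The size of these differences was read against genes of like signal, within 1 log2 unit of the mean, a comparison chosen after the data were seen. Of 124 other genes with a signal like that of Jchain, 4 differed by more and 0 differed by more toward replicate 2, and their median difference in size was 0.14. Near the ceiling differences are compressed. Without the 6 of these genes whose difference equalled that of the highest readings, the median was 0.16. That difference was 0.06 before centring and 0.11 after it. For Xbp1, 105 of 507 genes of like signal differed by more (20.7%), for Ighm 247 of 867 (28.5%) and for Sdc1 1211 of 4202 (28.8%). For Pigr and Pou2af1, 91.5% and 84.3% of such genes differed by more.

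Genes that accompany secretion leaned the same way as Jchain and Xbp1, and so did several lists of other genes, so the lean is not particular to secretion. Of all genes above the threshold 55.3% were higher on array 2, with a median difference of 0.05. Of the 47 secretory genes above the threshold 34 were higher on array 2, with a median difference of 0.20. Pdia3 differed by the amount of the highest readings, and without it 33 of 46 were higher, with a median of 0.21. Srpr, the signal recognition particle receptor gene, differed by 0.88 and Creld2 by 0.84, the most of the list. Of the 11 factors listed for the plasma cell programme and above the threshold 9 were higher on array 2, with a median of 0.39. Ell2 differed by 0.98 and the lymphoid factor gene Ikzf1 (8.75 and 9.33) by 0.63. Among the surface and homing genes above the threshold 8 of 11 were higher on array 2, with a median of 0.20 and with Cxcr4 at 1.09. Markers of other cells differed too, some by more than any of the 6 genes. All 8 stromal markers were higher on array 2. Dpt and Dcn differed by the amount of the highest readings, and the other 6 had a median difference of 1.09. The collagen genes Col3a1 (11.06 and 13.10, a difference of 2.08), Col1a2 (10.94 and 12.78, 1.89) and Col1a1 (13.54 and 15.23, 1.74) were past 2-fold, the last named after its values were seen. Lum, a matrix proteoglycan gene, differed by 0.05. Without Dpt and Dcn the summed linear signal of the stromal list was 47235 on array 1 and 85772 on array 2, a ratio of 1.82. Of the 9 macrophage markers above the threshold 6 were higher on array 2, with a median of 0.39, and Adgre1 differed by 0.86 and Fcgr1 by -0.88. Their list summed to 37459 and 38377, sums in which Lyz2 (14.76 and 14.66), the gene of highest signal, weighs most. Of the 4 T cell markers above the threshold 3 were higher, Cd4 by 0.92. Of the 8 genes above it for signals that induce IgA and keep plasma cells in the gut, 6 were higher on array 2, with a median of 0.45. Of the 6 innate lymphoid markers above it 3 were higher, with a median of 0.23, and of the 5 B cell genes 3, with a median of 0.08. Of the 15 epithelial markers above the threshold 7 were higher on array 2, with a median of -0.01, and the most different were the absorptive cell genes Fabp1 (-1.09) and Krt20 (0.81). No marker of these lists was at 0, as no value of the arrays was. The part of these cells in the differences of Jchain, Xbp1 and Ighm was not tested.

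The variable segments of antibody genes did not share the direction of Ighm, Ighg2b and Jchain. Of 113 heavy chain variable segments with a feature of their own 104 passed (92.0%), and 14 of the 104 were higher on array 2, with a median difference of -0.39. In contrast Ighm, Ighg2b and Jchain differed by 0.50, 0.37 and 0.69. Setting them against the segments was not planned beforehand. The features that Igha and Igkc share with other symbols are outside this contrast and are described with the data left unused. Before centring, the Igkc feature was lower on array 2 than on array 1, unlike these 3 genes. The Igha feature was nearly equal on both, at 12.09 and 12.14. Of 86 kappa variable segments 70 passed (81.4%), and 35 of the 70 were higher on array 2, with a median of -0.01. The 1 kappa joining segment measured passed and was lower on array 2, with a difference of -2.44. Leaving out segments whose difference was that of the highest readings gave 11 of 101 heavy and 34 of 69 kappa segments higher, with medians of -0.39 and -0.03. Segments are near copies of each other whose probes may share signal, so they are not independent measurements, and no test of this contrast exists with 1 array on each side.

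**Figure D4:**
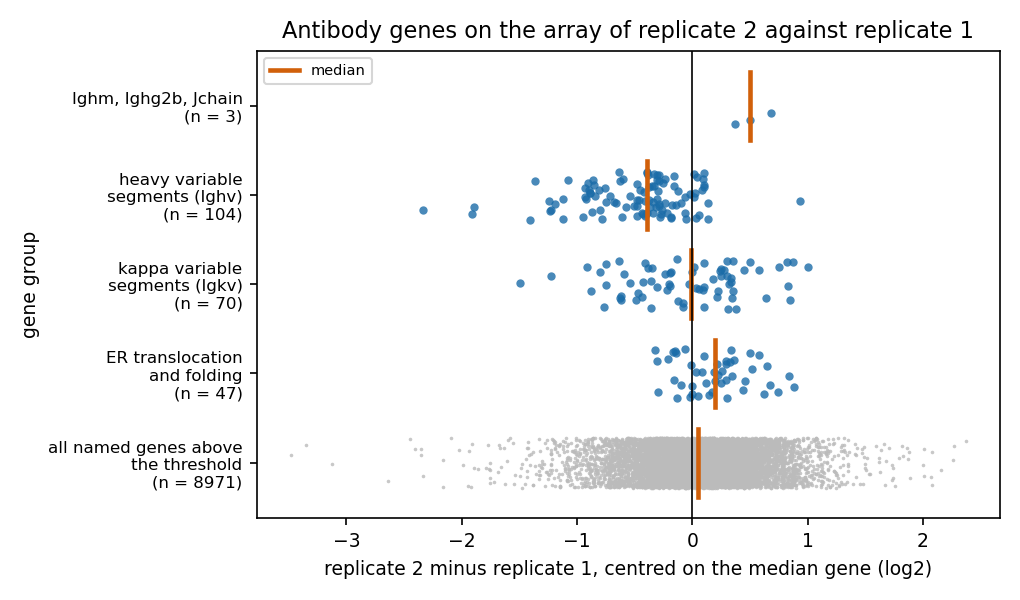
Difference between the arrays (replicate 2 minus replicate 1, log2, centred on the median gene, horizontal axis) for each gene above the threshold in 5 groups, with 1 point per gene and a bar at the group median. The heavy chain variable segments lie mostly left of 0, with a median of -0.39, and the points of Ighm, Ighg2b and Jchain lie right of it.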

How the data were processed

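The authors' deposited table holds 1 log2 signal per feature and array; the log scale was inferred from the values. MAS5 is named in the submitters' processing notes, without version or role. Correction, scaling and genome build were likewise not given in the sources used here. Of 61344 features, 28573 carried 1 symbol, 2014 several and 30757 none. Symbols were updated by Entrez identifier with the gene table of GRCm38.p6, which changed 783. For 213 genes with several features the highest mean was used. The group, gene lists and threshold were chosen with earlier results of these data known. The rule for named genes takes every measured member, the 3 highest, 2 lowest and 2 most different of each list, and Il10 and Ptprc; of the lists of other cell types only examples from it are printed, and genes outside it are marked as chosen after their values were seen. Levels, counts and differences were computed in Python 3.11.15 (pandas 2.3.3) and checked on simulated data. Depth has no counterpart on arrays; the 2 arrays limit the precision. Across genes, not replicates, the arrays correlated at r = 0.986. Array medians were 5.02 and 4.90. Alternatives changed the percentile, the reference genes, centring, quantile normalization, the feature rule, the filter and the arrays used.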

Additional observations from a re-analysis of the deposited data

Results flagged for a closer look

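Features that carry a listed gene together with other symbols entered none of the results above, and 4 of them lay above the threshold on both arrays, which drew attention as signal in data left unused. The feature that lists Igha with 7 other heavy chain symbols had 12.09 on array 1 and 12.14 on array 2, a mean of 12.12 ± 0.04 (SD, n = 2). The feature that lists Igkc, all of whose 14 symbols belong to the kappa locus, had a mean of 15.85 ± 0.21. Array 2 was the lower for it, at 15.70. Of 4 features that list Ighm with 1 other symbol, that shared with a kappa variable segment had a mean of 9.40 ± 0.18 and that shared with a heavy chain variable segment a mean of 8.42 ± 0.13. The 2 others, shared with Ighg3 and with another heavy chain variable segment, were below the threshold on both arrays, at 4.95 and 5.77. No signal of these features is assigned to a gene.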

How the results depend on the processing

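The 6 measured genes passed on both arrays with the 90th percentile of the reference, a reference of 57 keratin-associated protein and Rhox genes, quantile normalization and the median over features, and on each array alone. With the 99th percentile 4 passed, without Sdc1 and Pou2af1, and all named genes above the threshold fell from 8971 to 5588. Without replicate 1 or replicate 2 they numbered 9147 to 10925. The median difference of the 6 was 0.41 to 0.47 under the alternatives, and 0 of 6 exceeded 2-fold. The number of genes past 2-fold rose from 373 to 976 with no filter on low values. Leaving out an array leaves no difference to compute. No paired analysis was possible because there is 1 group.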

Other observations

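Genes of the signals that induce IgA and keep plasma cells in the gut were also read. Of 13 measured 8 passed on both arrays and 5 on neither, with a median signal of 8.31. Over all named genes 31.7% passed and the median was 5.43. Il6, a cytokine that supports plasma cells, had 12.18 on array 1 and 12.49 on array 2. Tgfb1, whose product drives switching to IgA, had 9.01 and 9.32, and Tnfsf13b, which encodes the B cell survival factor BAFF, had 8.16 and 8.74. Aldh1a2, which makes the retinoic acid that imprints gut homing, had 8.02 and 8.73, and the chemokine gene Cxcl12 had 8.32 and 8.86. Ccl28 and Ccl25, which encode the ligands of the mucosal homing receptors CCR10 and CCR9, had 8.51 and 8.12, and 8.62 and 8.54; both were named after their values were seen. Il21 (4.18 and 4.88) and the vascular addressin gene Madcam1 (5.59 and 5.07) were below the threshold on both arrays.

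Of the relatives of the measured genes, the other syndecan genes all passed. Sdc4 had 11.14 and 11.21, Sdc2 had 9.05 and 9.41, and Sdc3 had 7.04 and 7.36. Creb3l1, a membrane-bound factor of secretory cells, had 9.32 and 9.15. Pou2f3, an octamer factor of tuft cells, had 4.53 and 4.62 and Bst1, the relative of Cd38, had 4.93 and 5.23; neither passed on either array, and Bst1 was named after its values were seen.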
